A study of Mus musculus with 4 samples.

Results

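The scavenger receptors examined here are 10 genes of macrophages, endothelium and stromal cells that encode receptors for modified lipoproteins, bacterial surfaces and spent plasma proteins: Msr1, Cd36, Marco, Olr1, Stab1, Stab2, Cd163, Colec12, Scara5 and Scarf1. They were chosen by gene symbol, and every probe set that the platform annotation assigns to 1 of these genes alone was taken. That gave 17 of the 45101 probe sets. After an expression filter, 8 of the 10 genes were among the 11715 genes compared. RNA was taken from the aorta of mice in 4 groups, with 1 Affymetrix array per group: Ath29 congenic mice on Western diet, Ath29 congenic mice on chow, C57BL/6 apoE-/- mice (B6) on Western diet and B6 mice on chow. Ath29 is an atherosclerosis locus of chromosome 9, and a congenic strain carries a donor segment at such a locus on the background of another strain, here labelled C57BL/6. The apoE-/- genotype, a loss of apolipoprotein E that raises plasma cholesterol, is labelled for the B6 mice only. Ath29 mice are labelled as resistant to atherosclerosis and B6 mice as having it. All mice were weaned onto chow at 3 weeks of age, and the Western diet, rich in fat and cholesterol, was given for 2 weeks from 4 weeks of age. How many mice gave the RNA on each array is not labelled. The extraction protocol names liver where the other labels name aorta.

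Scavenger receptors bind lipoproteins after oxidation or acetylation and carry them into the cell, and this uptake is not shut off as the cell fills with cholesterol. In the arterial wall, uptake through these receptors is a textbook route by which macrophages become lipid-filled foam cells. The same proteins also serve other cells: Cd36 imports fatty acids into fat and muscle, and the stabilins clear waste molecules in sinusoidal endothelium. None of the genes lies on chromosome 9: the reference gene table places Marco on chromosome 1, Cd36 on 5, Olr1 and Cd163 on 6, Msr1 on 8, Stab2 on 10, Scarf1 on 11, Stab1 and Scara5 on 14 and Colec12 on 18.

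All values are linear intensities after a shift of each array to a common median. An array value below 27.5, the intensity that matches the expression filter, is treated as not told apart from background. The Apoe probe set read 25.1 and 8.43 in Ath29 mice on Western diet and chow, against 19.0 and 7.17 in B6 mice, all below that line. The position of its probes relative to the deletion is unknown, and the reading is therefore no check of genotype. Smooth muscle markers such as Acta2 were strong on every array, with a summed intensity of the 10 listed genes between 33034 and 39464. Of 12 hepatocyte markers 4 passed the filter and 7 were dimmer than it, and Serpina1a was not measured by a probe set of 1 gene. The 4 did not share an order of arrays. Albumin (Alb) read 56.0 and 64.0 in Ath29 mice on Western diet and chow and 54.5 and 33.7 in B6 mice, and Apoa2 and Fga read at most 94.0. Cyp2e1, a cytochrome P450 abundant in liver and also made in fat, was by far the brightest, with 2866 and 4560.0 in Ath29 mice and 4852 and 2541 in B6 mice, highest in B6 Western and lowest in B6 chow. Heart muscle transcripts stood apart in B6 Western, where the 10 listed genes summed to 13373, against 640 in Ath29 Western, 861 in Ath29 chow and 1024 in B6 chow. The 3' actin probe set over the one in the middle of the transcript, a sign of RNA integrity, gave ratios of 7.62 and 10.2 in Ath29 mice on Western diet and chow and 5.63 and 5.10 in B6 mice. The same ratio for Gapdh did not separate the strains, with 10.6 and 8.87 in Ath29 mice and 9.54 and 9.23 in B6 mice, so Ath29 chow had the highest ratio by actin and the lowest by Gapdh. Over the 5' probe set the 3' ratios were 24.4 to 31.5 for actin and 22.8 to 31.3 for Gapdh. The signal was thus strongly biased to the 3' end on all 4 arrays. The part of RNA integrity in the results below was not tested.

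Upstream sequences from RefSeq (build GRCm38.p6) were listed for 6 of the 10 genes, and 3 are shown to set genes with a clear signal beside one without: Cd36 and Cd163, which had the widest ranges over the arrays among the receptors above background on every array, and Olr1, which was below background on every array. Each is the 250 bases before the listed start, 5′ to 3′ on the gene's strand. They lie at chr5:17835897-17836146 (minus strand) for Cd36, chr6:124304401-124304650 (plus strand) for Cd163 and chr6:129507166-129507415 (minus strand) for Olr1. Capitals mark matches to 5 motifs searched on both strands: GAGGAA (PU.1, the myeloid master factor), TGANTCA (the AP-1 element), AGGTCA (a half-site of nuclear receptors such as PPAR gamma), TGACNNNGC (the antioxidant element) and TATAAA (the TATA box).
Cd36: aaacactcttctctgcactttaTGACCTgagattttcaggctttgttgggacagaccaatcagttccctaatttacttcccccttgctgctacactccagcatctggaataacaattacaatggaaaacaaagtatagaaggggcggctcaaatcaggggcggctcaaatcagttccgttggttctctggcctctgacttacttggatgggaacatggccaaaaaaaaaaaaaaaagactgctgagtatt
Cd163: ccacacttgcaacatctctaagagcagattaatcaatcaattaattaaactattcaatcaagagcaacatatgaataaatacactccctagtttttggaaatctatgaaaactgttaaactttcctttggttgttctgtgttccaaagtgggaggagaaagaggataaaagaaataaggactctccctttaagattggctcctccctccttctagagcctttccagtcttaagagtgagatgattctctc
Olr1: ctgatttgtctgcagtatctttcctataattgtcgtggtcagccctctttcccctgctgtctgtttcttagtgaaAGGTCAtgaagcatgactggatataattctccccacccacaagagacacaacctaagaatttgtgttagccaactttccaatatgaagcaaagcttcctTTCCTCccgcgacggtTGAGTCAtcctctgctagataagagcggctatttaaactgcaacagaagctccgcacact
The Cd36 window held 1 match, a nuclear receptor half-site on the opposite strand, which 14.0% of all 32851 listed windows of this length also hold. The Olr1 window held 3, a half-site, a PU.1 motif and an AP-1 motif, present in 14.0%, 23.3% and 6.75% of all windows. The Cd163 window held none of these letters. Among the windows not shown, those of Marco and Stab1 each held a PU.1 motif and that of Stab2 a half-site. Cd36 has alternative starts, and the window covers 1 of them. No overlap between motifs was found apart from the AP-1 motif, whose letters read the same on both strands. A match is a description of sequence, and no binding was measured.

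Cd36, the class B receptor for oxidised LDL and long-chain fatty acids, had the widest range over the arrays of the 8 genes compared, 1.56 log2 units. Its brightest probe set read 1386 in Ath29 Western, 1985 in Ath29 chow, 2741 in B6 Western and 929.9 in B6 chow. The second read 787, 1219.9, 2043 and 518 in the same order, and the third 300.4, 481, 664 and 184. All 3 probe sets, which cite the same source sequence in the annotation, put the arrays in the same order, with B6 Western highest and B6 chow lowest. In B6 mice Cd36 was 2.95-fold higher on Western diet than on chow, a log2 difference of 1.56, and 1.39% of all genes compared were at least as much higher. In Ath29 mice it was 1.43-fold lower on Western diet, a log2 difference of -0.52. Between strains it was 1.98-fold lower in Ath29 than in B6 mice on Western diet (log2 difference -0.98) and 2.14-fold higher on chow (1.09). The other 2 probe sets gave -1.38 and -1.14 on Western diet and 1.23 and 1.38 on chow, so the Western diet difference passes 2-fold with each of those and falls just short with the brightest. The diet difference in Ath29 minus that in B6 mice was -2.08, and 1.19% of genes were as low. At least 2-fold, 6.77% of all genes were lower in this strain by diet difference, Cd36 alone of the 8 receptors among them, and 4.95% were higher, with 0 of the 8. With 1 array per group none of these differences has a replicate check.

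**Figure D1:**
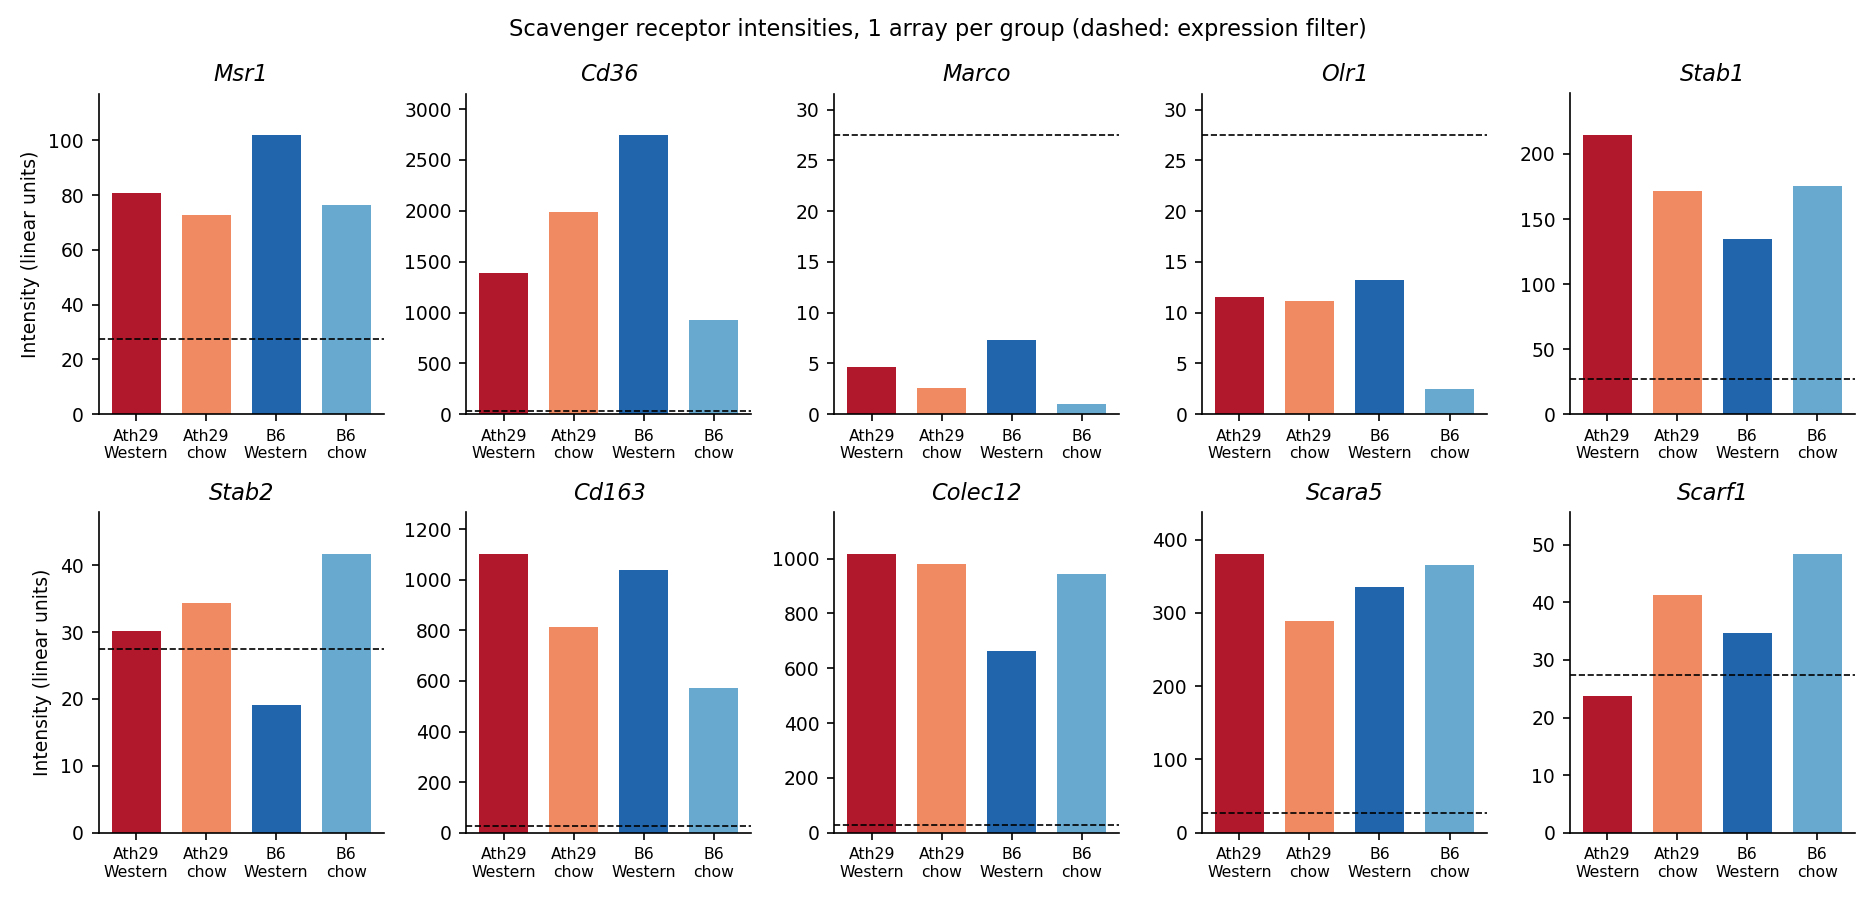
Intensity (linear, each panel on its own axis from 0) of the brightest probe set of each of the 10 receptors in the 4 arrays, 1 bar per array, with the expression filter of 27.5 as a dashed line. Marco and Olr1 lie below the line on every array, and Cd36 is highest in B6 Western (2741) and lowest in B6 chow (929.9).

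Summed fat transcripts put the arrays in the same order as Cd36. White fat markers other than Cd36, 12 listed, of which 10 had a probe set of their own and 9 passed the filter, summed to 17325 in Ath29 Western, 19034 in Ath29 chow, 20939 in B6 Western and 16093 in B6 chow. Brown fat markers, 9 listed, of which 8 had a probe set and all 8 passed, summed to 10590, 13777, 17996 and 8435 in that order. The median log2 difference of brown fat markers was -0.99 between Ath29 and B6 mice on Western diet and 1.16 on chow, and that between Western diet and chow was -0.55 in Ath29 and 1.53 in B6 mice. For Cd36 the 4 values were -0.98, 1.09, -0.52 and 1.56. White fat markers had medians of -0.66, 0.58, -0.38 and 0.78. Adipoq, the fat cell hormone adiponectin, read 3833 and 4702 in Ath29 mice on Western diet and chow, and 5358 and 3143 in B6 mice. Pparg, the nuclear receptor that drives Cd36 in fat cells and macrophages, read 53.8 and 96.0 in Ath29 mice and 146 and 45.8 in B6 mice on the same diets. Of the 10 heart muscle markers 9 passed the filter. They differed by a median of -4.39 between Ath29 and B6 mice on Western diet and -0.25 on chow. Tnni3 and Mb passed only through B6 Western, the array where they are high, and so enter that median by way of it. What part fat or heart tissue has in the Cd36 values was not tested, and in RNA from whole aorta fewer cells of a type and less RNA per cell cannot be told apart.

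**Figure D2:**
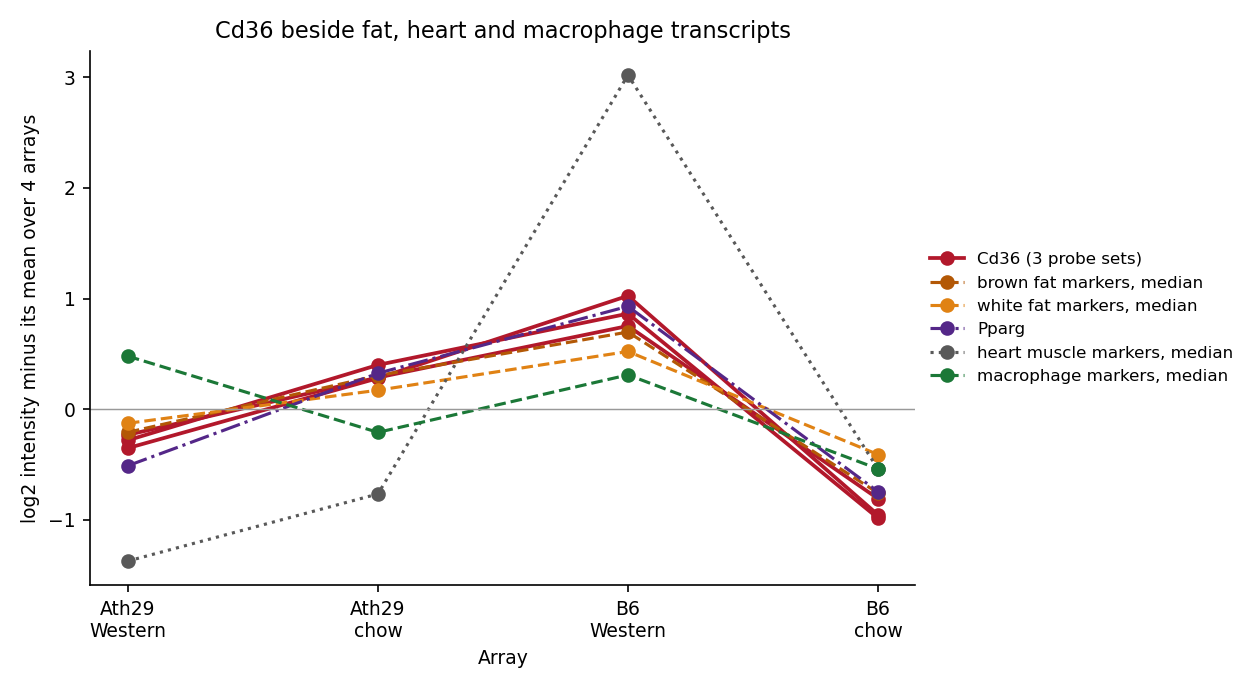
Log2 intensity minus its mean over the 4 arrays for the 3 Cd36 probe sets, Pparg and the median of the fat, heart muscle and macrophage marker lists. Points are single arrays and lines join the values of 1 item. Cd36, Pparg and both fat medians are highest in B6 Western and lowest in B6 chow, while the macrophage median is highest in Ath29 Western (0.48) and the heart median stands 3.02 above its mean in B6 Western. The heart list includes Tnni3 and Mb, which passed the filter only through B6 Western.

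Of the other receptors of lipid-loaded macrophages, Marco and Olr1 lay below the filter. Msr1, the class A receptor that takes up acetylated and oxidised LDL, passed it with 1 of 4 probe sets. It read 80.6 in Ath29 Western, 72.7 in Ath29 chow, 102 in B6 Western and 76.3 in B6 chow. B6 Western was highest and the other 3 arrays lay close together. The log2 difference between Western diet and chow was 0.15 in Ath29 and 0.42 in B6 mice, and that between Ath29 and B6 mice was -0.34 on Western diet and -0.07 on chow. All 4 lie within the 10th to 90th percentile of all genes. The other Msr1 probe sets read between 0.99 and 21.9, below the filter on every array. Marco, a class A receptor of macrophages for bacteria and particles, had a pair of probe sets that read 1.02 to 7.30, below the floor of 9.60 on every array. Olr1, the LOX-1 receptor for oxidised LDL on endothelium and macrophages, read 11.5 and 11.2 in Ath29 mice on Western diet and chow, and 13.2 and 2.53 in B6 mice. No difference is given for Marco or Olr1.

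Cd163, the macrophage receptor that clears haptoglobin-bound haemoglobin, was higher on Western diet in both strains. It read 1102 in Ath29 Western and 815 in Ath29 chow, and 1038 in B6 Western and 571 in B6 chow. The Western arrays were close to each other and above both chow arrays. The fold difference between Western diet and chow was 1.35 in Ath29 mice and 1.82 in B6 mice, log2 differences of 0.44 and 0.86. At least as high were 10.9% of all genes in Ath29 and 5.69% in B6 mice. The Ath29 value lies within the 10th to 90th percentile of all genes. Between strains the log2 difference of Ath29 from B6 mice was 0.09 on Western diet and 0.51 on chow. An additive fit of strain and diet with limma took the departure from additivity as the error. The error variance of each gene was moderated towards that of all genes. The fit gave a mean diet difference of 0.65 ± 0.25 (SE, 4 arrays). The limma unadjusted p, which rests on this moderated error and not on Cd163 alone, was 0.0429. The adjusted p was 1.0 over all genes, so it did not pass. Of the 20 listed macrophage markers 16 passed the filter, and all 16 were above 0 between Western diet and chow in each strain, with medians of 0.73 in Ath29 and 0.87 in B6 mice, against 0.04 and -0.06 for all genes. Within these 16, Adgre1 was level in Ath29 mice, at 86.2 on Western diet and 86.1 on chow, so its sign carries no direction. The 4 below the filter, Fcgr1, Aif1, Trem2 and Fcer1g, are not part of that count. The summed intensity of all 20 markers was 14315 in Ath29 Western, 8760 in Ath29 chow, 14325 in B6 Western and 7369 in B6 chow. Ctss, a lysosomal protease, read 3293 and 3454 in Ath29 and B6 mice on Western diet, and 1390.2 and 1280.0 on chow. The 10 markers of resident-type macrophages, a class for which Cd163 is itself a known marker, had medians of 0.36 in Ath29 and 0.00 in B6 mice. Among them F13a1, a clotting factor subunit, gave 0.40 and 0.62, and Cbr2, a carbonyl reductase, 0.59 and -0.61. The part of macrophage number in the Cd163 values was not tested.

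**Figure D3:**
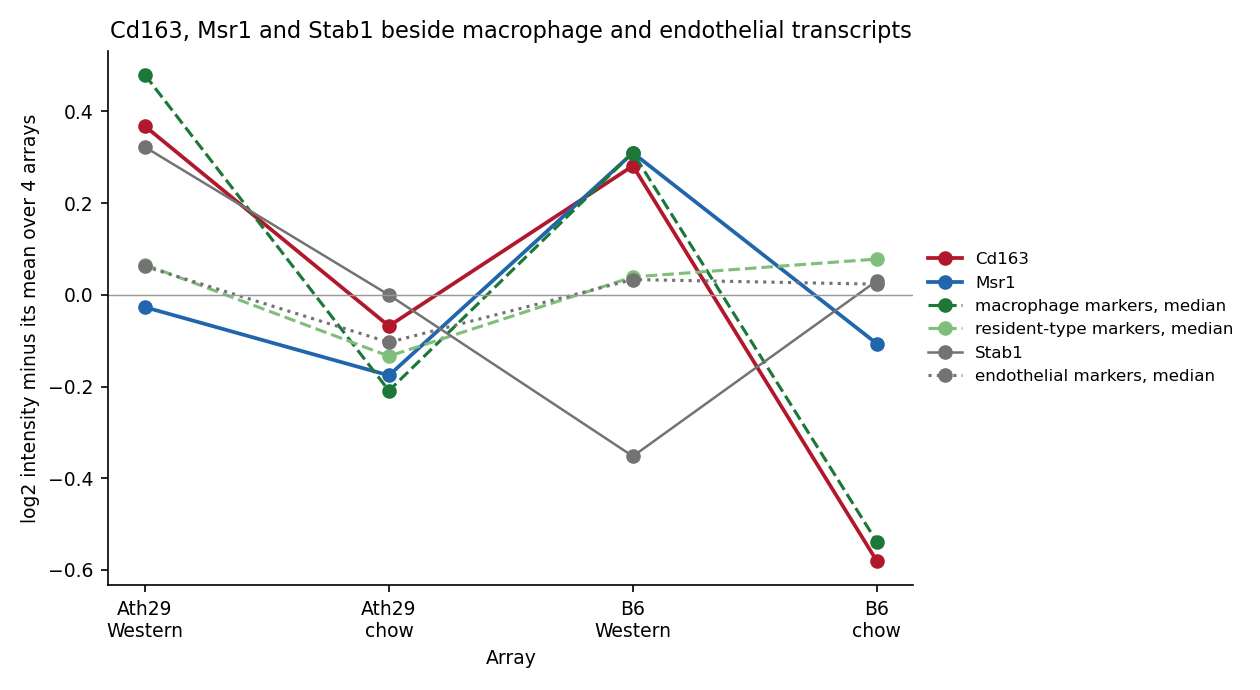
Log2 intensity minus its mean over the 4 arrays for Cd163, Msr1, Stab1 and the median of the macrophage, resident-type macrophage and endothelial marker lists, with single arrays as points and lines joining the values of 1 item. Cd163 and the macrophage median are above 0 in both Western arrays and below 0 in both chow arrays, and Stab1 is lowest in B6 Western (-0.35).

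Genes of haem and iron clearance, the pathway that Cd163 feeds, had no common direction. Of 12 listed genes 9 passed the filter, and 5 in Ath29 and 6 in B6 mice were above 0 between Western diet and chow, with median differences between Western diet and chow of 0.10 in Ath29 and 0.12 in B6 mice, against 0.04 and -0.06 for all genes. Hp, haptoglobin itself, read 2571 on Western diet and 1270.4 on chow in Ath29 mice, and 2507 on Western diet and 569 on chow in B6 mice. Slc40a1, the iron exporter ferroportin, went the opposite way in the strains, with -0.96 in Ath29 and 1.30 in B6 mice. Fth1, the ferritin heavy chain, gave 0.18 and 0.12. Hmox1, the haem-degrading oxygenase, read 3.07 to 19.0 and lay below the filter.

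Stab1 and Stab2 encode stabilins, large endothelial receptors that also bind oxidised LDL, Stab1 being made by tissue macrophages too. Stab1 read 214 in Ath29 Western, 171 in Ath29 chow, 134 in B6 Western and 175 in B6 chow. Both chow arrays were alike and the Western arrays stood on either side of them. On Western diet it was 1.60-fold higher in Ath29 than in B6 mice, a log2 difference of 0.67 that 3.77% of genes reached, and on chow the log2 difference was -0.03. Between diets it was 0.32 in Ath29 and -0.38 in B6 mice. Stab2 lay near the filter, with 30.2 in Ath29 Western, 34.3 in Ath29 chow, 19.1 in B6 Western and 41.7 in B6 chow. It was 2.18-fold lower on Western diet than on chow in B6 mice and 1.14-fold lower in Ath29 mice, but the B6 Western value lies below 27.5, and with it raised to that line the B6 difference is 1.52-fold. Stab2 passed the filter through B6 chow, its highest array: its mean log2 without that array was 4.76, below the limit of 4.78. Of the 14 listed endothelial markers 12 passed the filter. Their medians were 0.00 and -0.08 between Ath29 and B6 mice on Western diet and chow, and 0.13 and -0.04 between diets in Ath29 and B6 mice. Between strains on Western diet 6 of the 12 were above 0 and 6 below. Vwf, von Willebrand factor and the brightest, read 2042 and 1763 in Ath29 mice on Western diet and chow and 1656 and 2143 in B6 mice. Cldn5, the next brightest, read 550 and 558 in Ath29 mice and 575 and 475 in B6 mice, so B6 Western was lowest for Vwf and highest for Cldn5. The liver sinusoidal genes Oit3 and Dnase1l3 read at most 12.1. Of 5 listed Kupffer cell markers 3 passed the filter, and 2, the lectin Clec4f (12.7 to 28.1) and Vsig4, lay below it. Slc40a1, also in the haem and iron list, read from 305 in B6 chow to 751 in B6 Western. Cd5l read from 21.6 in B6 chow to 49.5 in B6 Western. Timd4 read from 24.8 in Ath29 chow to 36.3 in Ath29 Western. The part of liver tissue in the stabilin values was not tested. Clec4g, a lectin of sinusoidal endothelium, read 50.4 and 32.5 in Ath29 mice on Western diet and chow and 25.2 and 64.2 in B6 mice. B6 Western was lowest as for Stab2, but both B6 Western values lie below 27.5. Fcna, a ficolin of the same sinusoidal list, ran the other way, with 43.1 and 58.9 in Ath29 mice and 73.1 and 33.8 in B6 mice. Fcgr2b, an inhibitory Fc receptor of that list, read 156 and 141 in Ath29 mice and 131 and 170.2 in B6 mice.

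Scarf1, an endothelial receptor for acetylated LDL, also lay near the filter. It read 23.8 in Ath29 Western, 41.3 in Ath29 chow, 34.7 in B6 Western and 48.4 in B6 chow. Both Western arrays were below both chow arrays, with log2 differences of -0.79 in Ath29 and -0.48 in B6 mice. The Ath29 Western value lies below 27.5. The limma fit, again with the moderated error, gave a mean diet difference of -0.64 ± 0.25 (SE, 4 arrays), with an unadjusted p of 0.0412 and an adjusted p of 1.0.

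The stromal class A receptors were above background on every array. Colec12, a collectin-like receptor of endothelium and stroma that binds oxidised LDL, read 1018 in Ath29 Western, 982 in Ath29 chow, 664 in B6 Western and 944 in B6 chow. B6 Western was the single low array. Its log2 difference was 0.62 between Ath29 and B6 mice on Western diet, 0.06 on chow, 0.05 between diets in Ath29 mice and -0.51 in B6 mice. The differences of Stab1 and Colec12 past 1.5-fold therefore involve B6 Western, the array with the heart transcripts, whose part was not tested. Scara5, a ferritin receptor of adventitial fibroblasts and other stromal cells, read 381 in Ath29 Western, 289 in Ath29 chow, 335 in B6 Western and 365 in B6 chow. Its other probe set read 100.2, 117, 95.4 and 109 in that order, so the probe sets disagree on the diet difference in Ath29 mice, 0.40 against -0.23, and on the strain difference on chow, -0.34 against 0.10. Fibroblast markers, of which all 10 passed, had medians of 0.02 and -0.24 between Ath29 and B6 mice on Western diet and chow and of 0.14 and -0.25 between diets in Ath29 and B6 mice. The collagen chains Col1a1, Col1a2 and Col3a1 were lowest in B6 Western, as Colec12 was, while 6 of the 10, Dcn, Dpt, Lum, Pdgfra, Pi16 and Serpinf1, were lowest in Ath29 chow and Fbln1 in Ath29 Western. Col1a1 read 3306 and 4021 in Ath29 mice on Western diet and chow and 2305 and 4493 in B6 mice. Dcn, the proteoglycan decorin, read 5563 and 4888 in Ath29 mice and 5921 and 6111 in B6 mice.

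Set side by side, few of the receptors were 2-fold different in any comparison. Between Ath29 and B6 mice on Western diet, 0 of 8 were at least 2-fold higher, where 0.845% of all genes were, and 0 lower, where 2.03% were. On chow 1 was higher, Cd36, beside 2.17% of all genes, and 0 were lower, beside 1.94%. Between Western diet and chow in Ath29 mice 0 were higher, beside 1.32% of genes, and 0 lower, beside 0.854%. In B6 mice 1 was higher, Cd36, beside 4.11%, and 1 lower, Stab2, beside 1.17%. The Stab2 call rests on a value below background and is not counted once that value is raised to 27.5. Median log2 differences of the 8 were 0.14 and -0.05 between strains on Western diet and chow, and 0.10 and -0.25 between diets in Ath29 and B6 mice. Over all genes the medians were 0.00, -0.08, 0.04 and -0.06. The comparisons share arrays, since each array enters a strain and a diet difference. In the limma fit 0 members, and 0 of all genes, passed an adjusted p under 0.05 for diet or for strain. At an unadjusted p under 0.05 there were 2 members for diet, Cd163 and Scarf1, beside 2.51% of all genes, and 0 for strain, beside 2.59%. For Scarf1 the fit uses an Ath29 Western value of 23.8, below 27.5, and it was not repeated with that value raised. The diet count fell to 1 with quantile normalization or a common 75th percentile and to 0 with no filter.

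**Figure D4:**
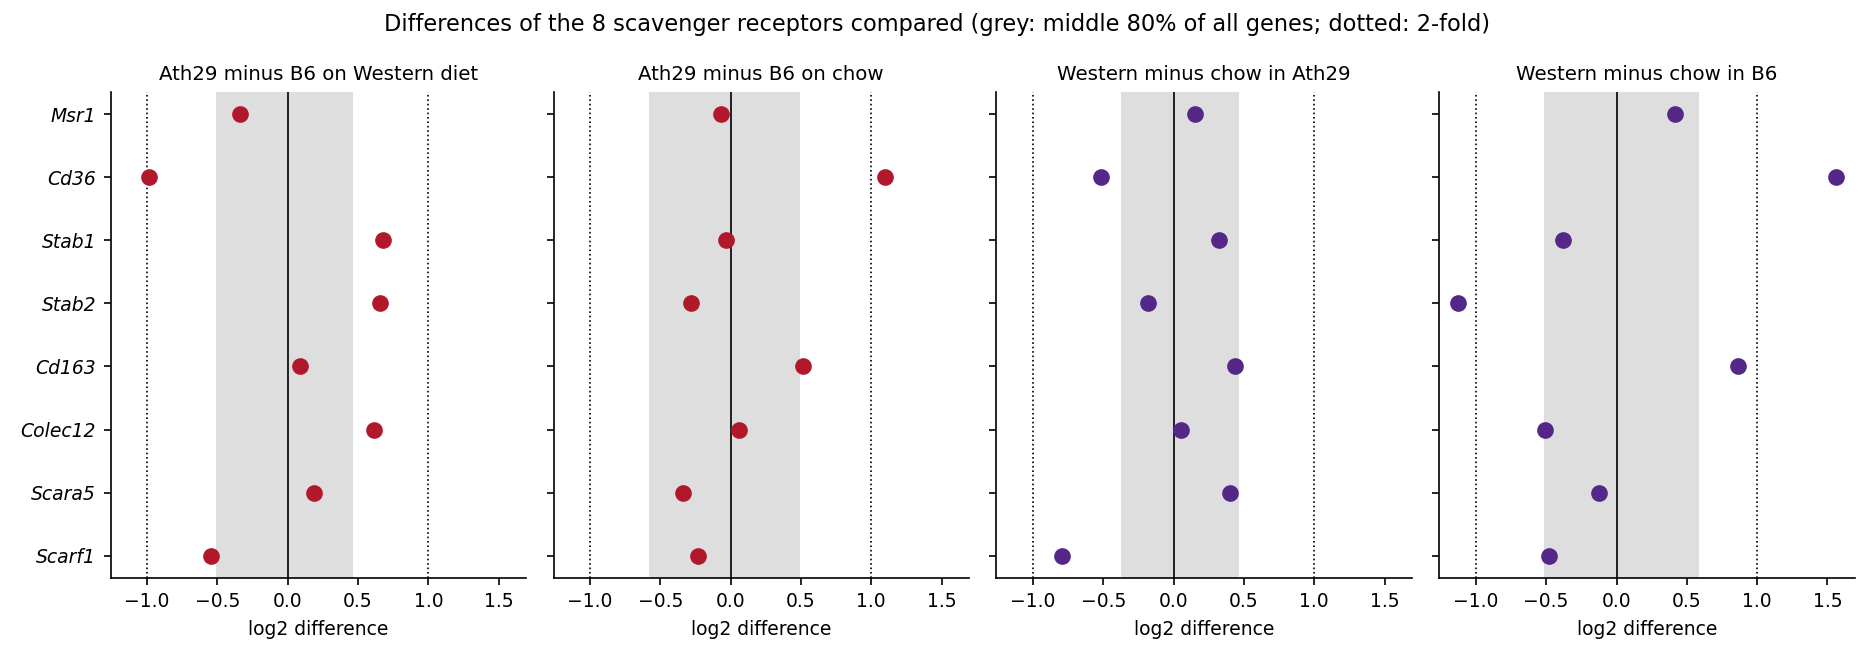
Log2 differences (horizontal axes) of the 8 receptors compared, 1 panel per comparison, with the 10th to 90th percentile of all 11715 genes in grey and 2-fold as dotted lines. Cd36 lies at 1.09 between strains on chow and 1.56 between diets in B6 mice, both past the dotted lines. Stab2 lies at -1.13 between diets in B6 mice, a point that rests on a B6 Western value below 27.5.

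Among 26 other scavenger and lipoprotein receptors, 19 passed the filter and 6 were dimmer. Between Western diet and chow in B6 mice, 4 of the 19 were at least 2-fold higher, beside 4.11% of all genes, and 0 lower, beside 1.17%. In Ath29 mice 1 was higher, beside 1.32%, and 0 lower, beside 0.854%. Between Ath29 and B6 mice, 1 was 2-fold lower and 0 higher on Western diet, beside 2.03% and 0.845% of all genes, and 1 was higher and 0 lower on chow, beside 2.17% and 1.94%. Scarb1, the HDL receptor, put the arrays in the same order as Cd36: it read 761 and 979 in Ath29 mice on Western diet and chow and 1369.7 and 600.1 in B6 mice. Clec7a, the beta-glucan receptor of myeloid cells, was higher on Western diet in both strains, as Cd163 was: it read 487 and 212 in Ath29 mice and 564 and 143 in B6 mice. Cd68, a macrophage lysosomal protein, read 89.9 and 50.1 in Ath29 mice and 69.4 and 38.0 in B6 mice. Scarb2, a lysosomal receptor, and Vldlr, an endothelial and muscle lipoprotein receptor, stayed within 0.17 log2 units in all 4 comparisons. Below the filter were Ager, Cd14, Dmbt1, Megf10, Megf11 and Tlr6.

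Genes that handle the lipid taken up were higher on Western diet in B6 mice. Of 20 listed, 15 passed the filter, and all 15 were above 0 between Western diet and chow in B6 mice, with a median of 0.80, against -0.06 for all genes. At least 2-fold higher there were 4 of the 15, beside 4.11% of all genes. In Ath29 mice 10 of 15 were above 0, with a median of 0.04, the same as for all genes, and 2 were at least 2-fold higher, beside 1.32%. Abcg1, a cholesterol exporter, read 361 and 174 in Ath29 mice on Western diet and chow and 401 and 94.9 in B6 mice. Abca1, its partner for lipid-poor apolipoprotein A-I, gave 0.50 in Ath29 and 0.89 in B6 mice. Plin2, the lipid droplet coat protein, gave 0.01 and 0.83, Lpl, the triglyceride lipase, -0.18 and 0.39, and Fabp4, a fatty acid carrier of fat cells and macrophages, -0.04 and 0.10. Several of these genes are also expressed in fat, whose markers were highest in B6 Western. The part of that tissue was not tested.

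Of 17 listed regulators of scavenger receptors, 11 passed the filter. Their medians were -0.09 and -0.03 between Ath29 and B6 mice on Western diet and chow, and 0.09 and 0.11 between diets in Ath29 and B6 mice. Cebpb, a factor of fat and myeloid cells, read 1946 and 2531 in Ath29 mice on Western diet and chow and 2162 and 1433 in B6 mice. Spi1, which encodes PU.1, read 59.7 and 44.8 in Ath29 mice and 45.1 and 39.6 in B6 mice. Fos, an AP-1 subunit, read 539.8 and 180.2 in Ath29 mice and 614 and 1455 in B6 mice. The inducers Il4, Il10, Csf2 and Tnf lay below the filter.

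By Euclidean distance between log2 profiles centred on their mean over the 4 arrays, the genes nearest to Cd36 were Cd1d1 (0.05), Crls1 (0.07) and Retsat (0.07). Cd1d1 presents lipid antigens, Crls1 makes cardiolipin in mitochondria and Retsat saturates retinol in fat. Nearest to Cd163 were Apoh (0.06), Ifi204 (0.06) and Clec4a2 (0.09). Over only 4 arrays such neighbours are common. Within 0.2 lay 43 genes for Cd36, 17 for Cd163, 32 for Stab2 and 11 for Scarf1. The counts were 368 for Msr1, 273 for Stab1, 245 for Colec12 and 820 for Scara5.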

How the data were processed

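The values the authors deposited are linear intensities, 1 per probe set and array, from 0.57 to 13421. How they were corrected for background or normalized, and with which software, is not given in the sources used. Per the labels' protocols, biotin-labelled cRNA was made from 8 ug of total RNA. The number of arrays, 1 per group, limits the precision. The platform annotation gives 1 symbol for 34945 of the 45101 probe sets, several for 932 and none for 9160, and 64 are controls. Gene IDs of 34741 were found in a gene table of assembly GRCm38.p6, which supplied current symbols.

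On the log2 scale the arrays were brought to 1 median (factors 0.99 to 1.02), and values below the 25th percentile (9.60) were raised to it. A probe set was kept where its mean log2 exceeded the median over probe sets (4.78, or 27.5 as intensity), and each gene was read from its brightest probe set. Differences are Ath29 minus B6 and Western minus chow, with at least 2-fold as the line for counts. With 1 array per group they carry no test. limma 3.58.1 (R 4.3.3) fitted strain and diet additively over all genes, with eBayes moderation of the error variance and Benjamini-Hochberg adjustment, and was tested on simulated data. Alternatives covered scaling, filter, floor, choice of probe set and fold threshold.

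The members and lists were chosen with earlier results of these data known. Named genes are the members, up to 5 of the brightest genes of each list, genes below the filter and the 3 genes nearest in profile. Abca1, Abcg1, Adgre1, Cbr2, Cd68, Clec7a, Fbln1, Lrp8, Lum, Mb, Pdgfra, Pi16, Pparg, Serpinf1, Spi1, Tlr2 and Tnni3 were named after their values were seen.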

Additional observations from a re-analysis of the deposited data

Results flagged for a closer look

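For 5 receptors the strains or the diets went opposite ways, which was not tested because each group holds 1 array. Any difference of opposite sign counts here, however small. The share of all genes with such opposite signs was not computed, so the count of 5 has no background beside it. The diet difference was negative in Ath29 and positive in B6 mice for Cd36 (-0.52 and 1.56), a strain by diet difference of -2.08. It was positive in Ath29 and negative in B6 mice for Stab1 (0.32 and -0.38, together 0.70), Colec12 (0.05 and -0.51, together 0.56) and Scara5 (0.40 and -0.12, together 0.52). The strain difference had opposite signs on Western diet and chow for Cd36 (-0.98 and 1.09), Stab1 (0.67 and -0.03), Stab2 (0.66 and -0.28, together 0.94, with a B6 Western value below background) and Scara5 (0.18 and -0.34). The Stab1 value on chow ran from -0.03 to 0.05 over the settings, so its opposite signs between strains did not hold under every setting. For Scara5 the other probe set gave -0.03 in place of 0.52 and showed no opposite signs. Its strain differences were 0.07 and 0.10 on Western diet and chow, and its diet differences -0.23 and -0.20 in Ath29 and B6 mice. Over all genes, 6.77% had a strain by diet difference of at least 2-fold below 0 and 4.95% above 0, and Cd36 was the 1 receptor past either line.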

How the results depend on the processing

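With 1 array per group, no value here has a replicate error, and depth cannot be stated for array signal. Values below 27.5, which touch Stab2 and Scarf1, are limited by background. No paired analysis was possible because each group holds 1 array. Of 107 recomputed counts and medians, 95 stayed within 1.5 times the count, or within 0.19 log2 units (the median residual SD of the additive fit) of the median. That limit is wider than most of the medians, so a change of sign can stay within it. The strain median on chow went from -0.05 to 0.06 with the stricter filter. The strain by diet median went from 0.13 to -0.01 with the mean of all probe sets. The tally also holds the adjusted counts of the additive fit, which were 0 throughout. Between Ath29 and B6 mice on Western diet the count past 2-fold, 0, became 1 (Cd36, lower) with the mean of all probe sets or with the suffixed probe sets (ID ending in _s_at, _x_at or _a_at) left out, and 4 at 1.5-fold. On chow the count of 1 became 0 at 3-fold. Between diets the count in Ath29 mice, 0, became 1 at 1.5-fold, and the count in B6 mice, 2, became 1 with the stricter filter, which leaves 5 receptors, and 0 at 3-fold. The median diet difference was 0.32 in Ath29 mice with the stricter filter, and -0.062 in B6 mice with no filter, where Marco and Olr1 enter. The median strain by diet difference, 0.13, became -0.13 with no filter, 0.52 with the stricter filter and -0.27 without the suffixed probe sets. In the additive fit 0 receptors passed the adjusted threshold under each of the 9 alternatives run. At an unadjusted p under 0.05 the 2 receptors for diet became 1 with quantile normalization, a common 75th percentile or the stricter filter and 0 with no filter, and stayed 2 under the other 5, and for strain the count stayed 0. The Cd36 strain by diet difference ran from -2.61 to -2.06 over the settings, and the Cd163 diet difference from 0.38 to 0.44 in Ath29 and 0.82 to 0.90 in B6 mice.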
